A study of Mus musculus with 8 samples.

Results

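The genes described here encode subunits of the voltage-gated sodium channels of sensory neurons. They are the 9 genes Scn1a, Scn3a, Scn8a, Scn9a, Scn10a, Scn11a, Scn2b, Scn3b and Scn4b, taken by name from a table of 55335 genes through the symbols of the mouse annotation GENCODE M21. All 9 were found, and all 9 passed the low-count filter that left 17618 genes for testing. RNA was sequenced from vagal ganglia, which hold the cell bodies of the vagus nerve's sensory neurons. All mice were wild type (labelled WT). They received saline or HDM (house dust mite, as the abbreviation is commonly read, an inhaled allergen), and the ganglia were taken 1.5 h after challenge number 4. Each group had 4 libraries, and for every library 6 to 8 ganglia were combined from 3 to 4 mice. The labels number the libraries of a group from 1 to 4 and give a batch with the same number, and a batch therefore pairs 1 HDM pool with 1 saline pool. No source used here gives the mice's age, sex or strain. A replicate is a pool of animals, so p-values measure the spread between pools.

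Sodium channels open when the membrane depolarises and carry the inward current that starts and propagates the action potential. The alpha subunit forms the pore and senses voltage. The beta subunits cross the membrane with an immunoglobulin-like domain outside the cell and adjust the gating, surface level and anchoring of the alpha subunit. In vagal and other sensory neurons, the channels encoded by Scn10a and Scn11a are known to resist the puffer fish toxin tetrodotoxin and are typical of unmyelinated fibres that respond to irritants, while those of Scn1a, Scn3a, Scn8a and Scn9a are blocked by it.

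A position of the pore loop is known to set how strongly tetrodotoxin blocks a channel. The stretches below are 36 bases of coding sequence from the pore loop of the first channel domain in 5 of the 6 alpha subunit genes, read from the GENCODE M21 transcripts (GRCm38). They are shown because they set Scn10a and Scn11a, the highest of the 9 genes per length below, apart from Scn3a, Scn8a and Scn9a. Capitals mark the codon at that position.
Scn9a: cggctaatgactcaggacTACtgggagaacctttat
Scn3a: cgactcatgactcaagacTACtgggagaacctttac
Scn8a: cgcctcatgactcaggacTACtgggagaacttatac
Scn11a: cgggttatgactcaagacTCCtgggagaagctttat
Scn10a: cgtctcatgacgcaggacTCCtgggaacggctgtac

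The codon was TCC in Scn10a and Scn11a and TAC in Scn3a, Scn8a and Scn9a. Each stretch lies within exon 9 of its transcript. Those of Scn9a (chr2:66548986-66549021) and Scn3a (chr2:65521798-65521833) are on the minus strand of chromosome 2, that of Scn8a (chr15:100971620-100971655) on the plus strand of chromosome 15, and those of Scn11a (chr9:119805665-119805700) and Scn10a (chr9:119666372-119666407) on the minus strand of chromosome 9. Against Scn9a, 4 bases differed in Scn3a, 5 in Scn8a, 5 in Scn11a and 10 in Scn10a.

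The genes lie in clusters. Scn3a (ENSMUSG00000057182, 65457118 to 65567627), Scn1a (ENSMUSG00000064329, 66270778 to 66440840) and Scn9a (ENSMUSG00000075316, 66480080 to 66634962) stand on chromosome 2, where the annotation also places Scn2a and Scn7a. Scn10a (ENSMUSG00000034533, 119608456 to 119719322) and Scn11a (ENSMUSG00000034115, 119753759 to 119825456) stand on chromosome 9. The beta subunit genes Scn3b (ENSMUSG00000049281, 40269217 to 40291618), Scn2b (ENSMUSG00000070304, 45117782 to 45130070) and Scn4b (ENSMUSG00000046480, 45138395 to 45154152) are also there, and Scn8a (ENSMUSG00000023033, 100869858 to 101045938) is on chromosome 15. Coordinates are GRCm38.

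The HDM libraries held 23.95 to 26.67 M (mega-counts) and the saline libraries 26.87 to 31.28 M. The genes were well covered, from 821 counts (Scn3a, HDM 1) to 37113 counts (Scn10a, Saline 4). The tissue label was checked against markers, as summed CPM, the counts per mega-count of a TMM-adjusted library. Neuronal markers (8 genes) summed to 8645 to 9289 CPM in HDM and 8382 to 8600 CPM in saline. Of the 8 genes 1, Prph, was called higher in HDM (edgeR adjusted p under 0.05), against 1.23% of all tested genes. Markers of nodose neurons summed to 451 to 628 and 445 to 520 CPM, and of jugular neurons, the other part of the fused mouse ganglion, to 201 to 259 and 230 to 266 CPM. Myelinating Schwann cell markers summed to 2503 to 2744 and 2596 to 3181 CPM, and satellite glia markers to 2519 to 2802 and 2156 to 2745 CPM. Sympathetic neuron markers reached 878 CPM in HDM 4, against 172 to 409 CPM in the other libraries. Macrophage markers summed to 25.9 to 47.9 CPM and endothelial markers to 51.2 to 81.4 CPM over all libraries, skeletal muscle markers at 2.86 CPM or less, and no marker gene was at 0 in all libraries.

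Levels of different genes were compared as CPM per kilobase of gene length. The tetrodotoxin-resistant channels led. Scn10a, which encodes the alpha subunit known as Nav1.8, had 143 ± 9.16 CPM per kilobase (SD, n = 8 libraries) and ranked 202 of the 17618 tested genes. Scn11a, the gene of Nav1.9, which carries a persistent current near rest, had 93.4 ± 9.55 and ranked 369. Scn9a, the gene of Nav1.7, which amplifies small depolarisations of sensory endings, had 45.5 ± 4.76 and ranked 938. Scn8a, the gene of Nav1.6, the main channel of mature nodes of Ranvier, had 10.3 ± 0.803, and Scn1a, the gene of Nav1.1, 7.45 ± 0.710. Scn3a, the gene of Nav1.3, known as an embryonic and injury-associated channel, was lowest at 2.75 ± 0.234 and ranked 10293.

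Per kilobase, Scn10a stood 1.53-fold above Scn11a (1.42 to 1.64 in single libraries), 3.15-fold above Scn9a (2.77 to 3.46), 13.9-fold above Scn8a and 52.1-fold above Scn3a (43.1 to 57.6). The alpha subunits thus kept 1 order in all 8 libraries, with no overlap between neighbours. Among the beta subunits, Scn4b, whose product is known for its part in resurgent current, had 42.8 ± 3.51 CPM per kilobase, Scn3b 41.3 ± 2.45 and Scn2b 24.1 ± 2.20. Scn9a, Scn4b and Scn3b could not be separated: the library ranges of Scn9a (40.0 to 54.7) and Scn4b (37.4 to 46.6) overlapped, as did those of Scn4b and Scn3b (38.1 to 45.8). Dividing by the longest coding transcript in place of the gene length put Scn3b (54.3) above Scn4b (42.8) and left the order of the 6 alpha subunits as it was.

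**Figure D1:**
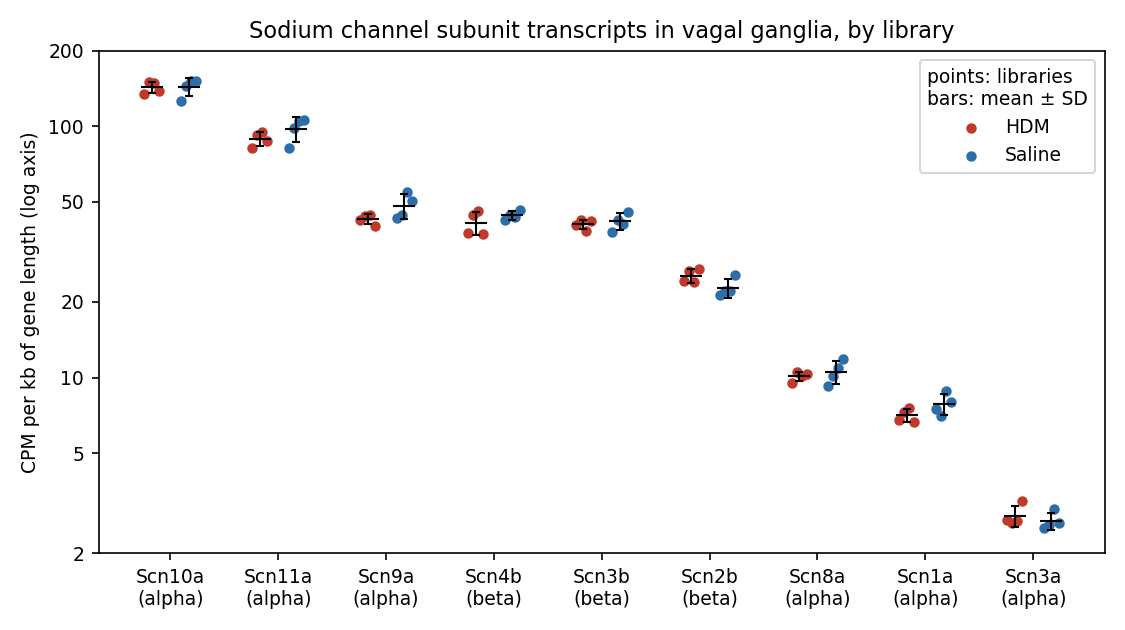
Level of each sodium channel subunit gene in CPM per kilobase of gene length (log axis), with 1 point per library (4 HDM, 4 saline) and bars for the mean ± SD of each group. The levels run from 143 for Scn10a to 2.75 for Scn3a, and the HDM and saline points of every gene overlap.

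HDM and saline were compared to ask whether sodium channel transcripts differ in the ganglia 1.5 h after challenge number 4. The last challenge and earlier ones cannot be told apart in this comparison. No subunit gene passed the test: 0 of 9 had an adjusted p under 0.05 (edgeR quasi-likelihood F-test, Benjamini-Hochberg adjustment over all tested genes), where 1.38% of all tested genes did, 1.23% higher and 0.159% lower in HDM. With the replicate block 0 of 9 passed against 4.05% of all genes, and at a looser threshold of 0.10 with the block 1 of 9, Scn2b, against 8.12%. At an unadjusted p under 0.05 there were 3 of the 9 (Scn1a, Scn9a and Scn2b) in edgeR, 3 in DESeq2 and 3 in limma-voom, and 18.1% of all tested genes in edgeR. The 2 groups overlapped for 9 of 9 genes, while they did not overlap for 10.6% of all tested genes. The fitted log2 fold change (HDM over saline) was below 0 for 7 of the 9 and for 51.5% of all tested genes, and its median was −0.06 over the 9 and −0.006 over all tested genes. Every HDM library also stood above every saline library in the neuronal marker sum, and the part of that difference in the subunit values was not tested. In bulk ganglia, fewer cells of a type and less RNA per cell cannot be told apart.

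The intervals of the group fit give a range of change for each gene. The 95% interval that was widest on the log2 scale reached from −18.7% to 1.76% (Scn11a), and that of Scn9a from −20.0% to −1.71%. For the most abundant gene, Scn10a, it lay between −8.92% and 9.18%. The interval of Scn2b reached highest, from 2.06% to 22.8%, and that of Scn3a ran from −5.92% to 16.9%. These ranges depend on the fit. After the GC correction the log2 interval was −0.008 to 0.30 for Scn3a and −0.32 to −0.012 for Scn4b. The biological coefficient of variation is the fitted spread of libraries within a group beyond counting noise. It was 6.02% to 7.91% for the 9 genes, with a median of 6.84%. The median over all tested genes was 8.21%. That median takes in genes of lower counts, and genes of a like level were not compared.

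**Figure D2:**
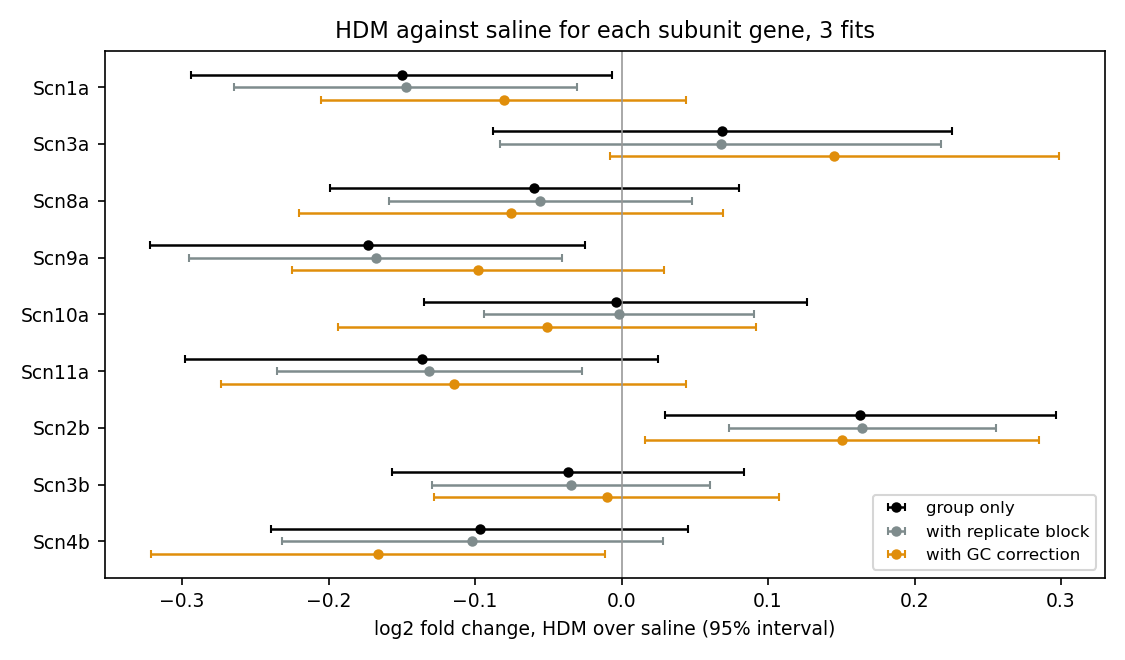
Fitted log2 fold change (HDM over saline) of each subunit gene with its 95% interval, from the fit on group alone (black), with the replicate block (grey) and with a correction for GC content (orange). The black intervals of Scn1a, Scn9a and Scn2b leave out 0, and 0 of 9 genes passed after adjustment over all genes in any of the 3 fits.

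Scn10a had nearly the same mean in both groups. Its CPM was 1072, 1193, 1187 and 1105 in HDM 1 to 4, and 1006, 1154, 1205 and 1204 in Saline 1 to 4. The saline pools held both the lowest value and the highest ones, and the HDM pools lay between them. The means were 1139 ± 60.3 and 1142 ± 93.7 CPM (n = 4 each), a log2 fold change of −0.0041 (SE 0.061, edgeR adjusted p = 0.980). HDM was higher in 2 of 4 batches, and the sign of so small a difference turned when single libraries were left out.

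Scn11a, the other tetrodotoxin-resistant channel, had 486, 549, 561 and 516 CPM in HDM and 484, 584, 623 and 630 CPM in saline. Saline 2, 3 and 4 stood above every HDM pool, and Saline 1 below every HDM pool. The means were 528 ± 34.1 and 580 ± 67.1 CPM, with a log2 fold change of −0.14 (SE 0.075, edgeR adjusted p = 0.356, and 0.146 with the replicate block). With single libraries left out it ran from −0.22 (without Saline 1, adjusted p = 0.0623) to −0.098 (without Saline 4).

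Scn9a had 541, 562, 569 and 511 CPM in HDM and 553, 565, 698 and 646 CPM in saline. Saline 3 and 4 stood apart above the rest, and Saline 1 and 2 lay within the HDM range. The means were 546 ± 25.7 and 615 ± 68.9 CPM, and the value was lower in HDM in 4 of 4 batches. The log2 fold change of −0.17 (SE 0.069, unadjusted p = 0.0253, edgeR adjusted p = 0.208, and 0.130 with the replicate block) did not pass. It was −0.098 after the GC correction, and with single libraries left out it ran from −0.23 (without Saline 1, adjusted p = 0.0848) to −0.11 (without Saline 3).

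Scn1a, which in sensory nerves is known from larger, myelinated fibres, resembled Scn9a. Its CPM was 75.5, 81.1, 84.3 and 74.0 in HDM and 83.5, 78.3, 98.2 and 89.5 in saline. As for Scn9a, Saline 3 was highest, Saline 4 next and HDM 4 lowest. The log2 fold change was −0.15 (SE 0.067, unadjusted p = 0.0416, edgeR adjusted p = 0.255), and −0.081 after the GC correction. With single libraries left out it ran from −0.20 (without Saline 2) to −0.089 (without Saline 3). The satellite glia marker sum was lowest in these saline libraries (2372 CPM in Saline 3 and 2156 CPM in Saline 4, against 2519 to 2802 CPM elsewhere), and its part in these values was not tested.

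Scn8a had 150, 166, 160 and 162 CPM in HDM and 146, 160, 172 and 187 CPM in saline. The HDM pools lay close together inside the wider saline range. The log2 fold change was −0.06 (SE 0.065, edgeR adjusted p = 0.668), and HDM was higher in 2 of 4 batches. It was −0.12 without Saline 1 and −0.0025 without Saline 4.

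Scn3a had 34.4, 33.6, 34.2 and 40.9 CPM in HDM and 32.1, 33.0, 38.0 and 33.4 CPM in saline. HDM 4 and Saline 3 were high and the other 6 libraries lay within 32.1 and 34.4 CPM. The log2 fold change of 0.07 (SE 0.073, edgeR adjusted p = 0.659) went to −0.0028 without HDM 4. HDM 4 was also the library with 878 CPM of sympathetic neuron markers, while Saline 3 had 282 CPM of them. Saline 2, next after HDM 4 in these markers at 409 CPM, had 33.0 CPM of Scn3a. The part of these markers in the Scn3a values was not tested.

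Of the beta subunits, Scn2b, whose product is linked to the alpha subunit by a disulfide bond, was nearest to a call. Its CPM was 113, 124, 111 and 126 in HDM and 99.0, 103, 103 and 119 in saline. Saline 4 reached into the HDM range, while Saline 1 to 3 lay below every HDM pool. The means were 119 ± 7.47 and 106 ± 9.11 CPM, and HDM was higher in 4 of 4 batches. The log2 fold change was 0.16 (SE 0.062, 95% interval 0.029 to 0.30, unadjusted p = 0.0204, edgeR adjusted p = 0.190). With the replicate block its adjusted p was 0.0528, the lowest over 21 alternative settings, whose log2 fold changes ran from 0.12 to 0.23. Without Saline 4 it was 0.22 (adjusted p = 0.0585). After the GC correction it was 0.15 (adjusted p = 0.369).

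Scn3b, which binds alpha subunits without a covalent bond, had 222, 231, 210 and 229 CPM in HDM and 208, 232, 224 and 250 CPM in saline. The HDM values lay inside the saline range (log2 fold change −0.036, SE 0.056, edgeR adjusted p = 0.769). Scn4b, like Scn2b a disulfide-linked subunit, had 187, 221, 229 and 186 CPM in HDM and 211, 220, 217 and 232 CPM in saline. HDM 1 and HDM 4 were low and HDM 2 and 3 lay with the saline pools, giving a log2 fold change of −0.097 (SE 0.066, edgeR adjusted p = 0.467). This value was −0.052 without HDM 4, −0.055 without HDM 1, −0.15 without HDM 3 and −0.17 after the GC correction. In HDM 1 and HDM 4 the jugular marker sum was also low (201 and 218 CPM, against 230 to 266 CPM elsewhere) and the nodose sum high (607 and 628 CPM, against 445 to 520 CPM). Scn1a, Scn9a, Scn10a and Scn11a were also lower in HDM 1 and HDM 4 than in HDM 2 and 3, while Scn3a, Scn8a, Scn2b and Scn3b were not. The part of these marker sums in the subunit values was not tested.

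**Figure D3:**
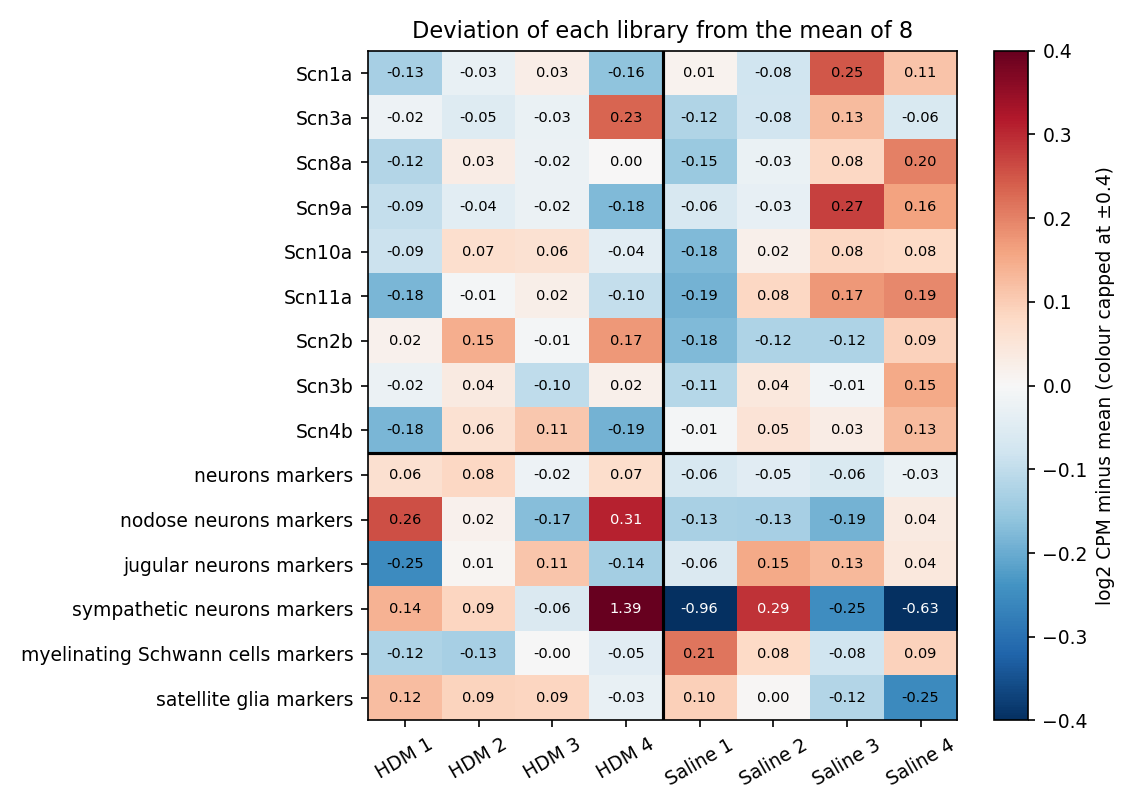
Deviation of each library's log2 CPM from the mean of the 8 libraries for the 9 subunit genes and for the summed markers of 6 cell types (colour and printed value; colour capped at ±0.4). Scn9a, Scn1a and Scn11a are high in Saline 3 and 4. Scn4b, Scn1a, Scn9a, Scn10a and Scn11a are below their means in HDM 1 and 4, as are the jugular markers. Scn3a is highest in HDM 4, where sympathetic markers are highest, and next in Saline 3, where they are below their mean.

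The pattern most like each subunit's was sought among 10362 tested genes above 10 CPM on average, as the smallest root-mean-square difference of log2 CPM, each gene centred on its mean over the 8 libraries. CPM scales out the depth of a library, while the measure takes in composition shared by the genes' libraries. For the alpha subunits it named Kcnh7 for Scn1a (0.026), Slc4a8 for Scn3a (0.045), Adam23 for Scn8a (0.021), Clcn5 for Scn9a (0.029), Fam117b for Scn10a (0.027) and Camk1d for Scn11a (0.026). For the beta subunits it named Trappc9 for Scn2b (0.031), Extl2 for Scn3b (0.020) and Dclre1c for Scn4b (0.032). The median over all genes compared was 0.116 to 0.162. Within the family, Scn1a and Scn9a were closest to each other (0.044, rank 19 for Scn9a and rank 28 for Scn1a), while the nearest member to Scn3a, Scn2b, ranked 3815.

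The make-up of the transcripts of the 6 alpha subunit genes was described as each gene's share of their summed CPM per kilobase. Other alpha-family genes, such as Scn7a and Scn2a, whose levels are given further down, are not in this sum. It was 278 to 309 in HDM and 271 to 334 in saline. Scn10a and Scn11a together held 78.2% ± 0.971 (SD, n = 8), Scn9a 15.01% ± 0.860, Scn8a 3.42% ± 0.129, Scn1a 2.46% ± 0.164 and Scn3a 0.912% ± 0.102. The beta subunits summed to 102 to 113 CPM per kilobase in HDM and 102 to 118 in saline, with 39.5% ± 2.49 from Scn4b, 38.2% ± 1.37 from Scn3b and 22.3% ± 1.79 from Scn2b.

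The Scn10a share was 48.4%, 48.8%, 48.3% and 48.5% in HDM 1 to 4 and 46.7%, 47.1%, 45.3% and 45.7% in Saline 1 to 4. The HDM libraries lay within a narrow band above every saline library, with means of 48.5% ± 0.223 and 46.2% ± 0.825 (n = 4 each). The groups also stood apart when lengths of the longest coding transcripts were used (49.6% to 50.1% against 46.5% to 48.5%) and when counts were not divided by length (45.4% to 46.2% against 42.5% to 44.8%). A length scales a gene alike in all 8 libraries, so these versions rest on the same counts and are no independent check. The Scn2b share of the beta subunits was 23.7%, 23.5%, 22.1% and 25.5% in HDM and 20.9%, 20.3%, 20.7% and 21.7% in saline, again without overlap. The shares of the other 7 genes overlapped between the groups, for example 30.2% ± 0.519 and 31.5% ± 0.905 for Scn11a and 14.5% ± 0.534 and 15.5% ± 0.870 for Scn9a. Shares of a sum move together, and they carry no test here. The groups were thus apart for 2 of 9 shares. The 10.6% of all tested genes apart by CPM is another measure, and shares of this kind were not formed for other genes.

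A correction for GC content changed the gaps between the genes in both directions, and its part in the shares was not tested. Transcript GC was 52.8% for Scn10a, 50.8% for Scn8a, 48.1% for Scn11a, 43.3% for Scn1a, 42.4% for Scn9a and 42.1% for Scn3a. The log2 fold change of Scn10a exceeded that of Scn9a by 0.17, that of Scn1a by 0.15, that of Scn11a by 0.13 and that of Scn8a by 0.06, and after the correction by 0.047, 0.030, 0.064 and 0.025. From Scn3a it differed by −0.07, and after the correction by −0.20. Among the beta subunits, GC was 50.5% for Scn2b, 47.8% for Scn3b and 54.5% for Scn4b. Scn2b exceeded Scn3b by 0.20 and Scn4b by 0.26, and after the correction by 0.16 and 0.32.

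**Figure D4:**
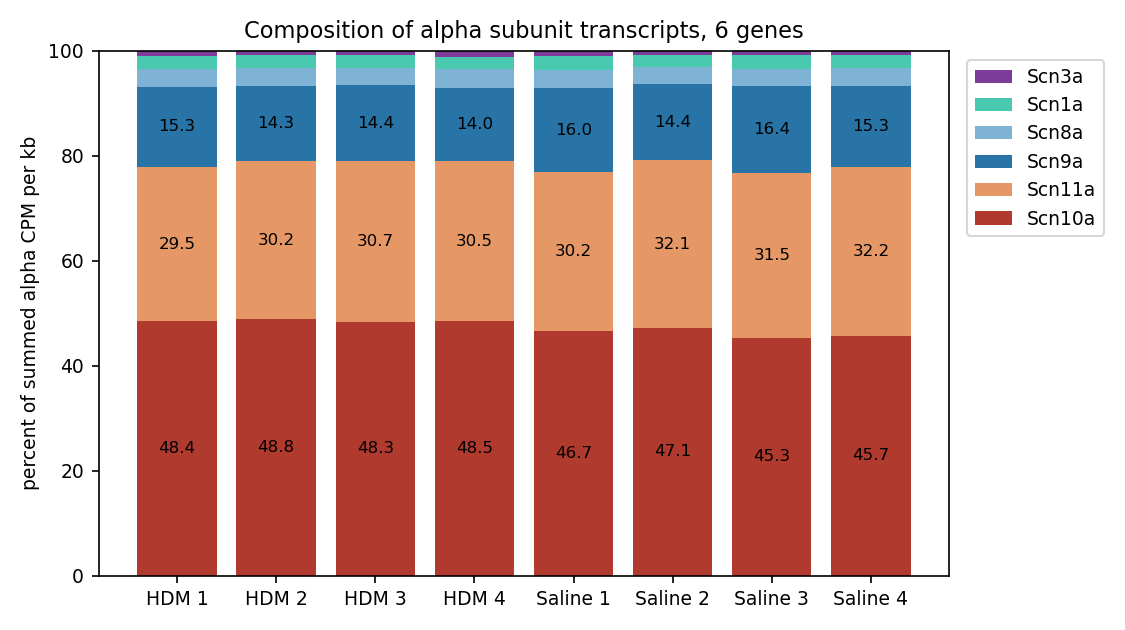
Share of the summed CPM per kilobase of the 6 alpha subunit genes held by each gene, in percent, with 1 bar per library. Scn10a holds 48.3% to 48.8% in HDM and 45.3% to 47.1% in saline, and Scn10a with Scn11a 76.8% to 79.2% in all libraries.

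Other genes of the sodium channel family were taken as a list of 4 (Scn2a, Scn4a, Scn7a and Nalcn). In the group comparison 1 of the 4 fell and 0 rose (edgeR adjusted p under 0.05), against 0.159% and 1.23% of all tested genes. Scn7a encodes Nax, an atypical channel that senses extracellular sodium and is not opened by voltage. It had 651, 658, 709 and 589 CPM in HDM and 749, 739, 833 and 812 CPM in saline. Every HDM pool was below every saline pool. The means were 652 ± 49.2 and 783 ± 46.6 CPM, and Scn7a fell by 0.26 on the log2 scale (SE 0.060, 95% interval −0.39 to −0.14, edgeR adjusted p = 0.0468, and 0.0215 with the replicate block). Per kilobase its level of 97.8 ± 11.3 CPM was close to that of Scn11a. The adjusted p was 0.00110 in DESeq2 and 0.00247 without a filter. The call was lost with RLE size factors (0.0511), after the GC correction (log2 fold change −0.18, adjusted p = 0.206), without any 1 of the 4 batches (0.0885 to 0.209), and without HDM 1 (0.160), HDM 2 (0.165), HDM 4 (0.132), Saline 2 (0.0723), Saline 3 (0.171) or Saline 4 (0.0696). Without HDM 3 or Saline 1 the adjusted p was 0.0297 and 0.0360. With single libraries left out the log2 fold change ran from −0.31 to −0.22. Among Schwann cell markers 1 of 7, Pmp22, was also lower in HDM, against 0.159% of all tested genes. The sum of the 7 overlapped between the groups (2503 to 2744 CPM in HDM and 2596 to 3181 CPM in saline). The part of these markers in the Scn7a value was not tested.

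Scn2a, best known from central neurons, Scn4a, the skeletal muscle channel gene, and Nalcn, which encodes a sodium leak channel, had 3.11, 0.913 and 7.43 CPM per kilobase, and log2 fold changes of −0.08, 0.05 and −0.05 (edgeR adjusted p = 0.410 to 0.871).

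Partners of the channels were a list of 24 genes for channel-binding growth factor homologues, ankyrins and other node proteins, calmodulins, trafficking and ubiquitin ligase proteins and ion transporters. In the group comparison 0 of the 24 passed (edgeR, against 1.38% of all tested genes), 3 had an unadjusted p under 0.05 (against 18.1%), and their median log2 fold change was −0.0075. With the replicate block 1 of 24 was higher in HDM and 0 lower, where 4.05% of all tested genes passed, a share of the same size. This was Sptbn4, the beta spectrin that anchors channels at nodes and initial segments. It had 67.7, 66.9, 61.2 and 59.6 CPM in HDM and 56.3, 56.1, 51.0 and 45.5 CPM in saline, with every HDM pool above every saline pool. Its log2 fold change was 0.29 (edgeR adjusted p = 0.0564 by group alone and 0.00952 blocked), and it also passed in DESeq2 (0.00517), without a filter (0.00359), without HDM 3 (0.0483) and without Saline 1 (0.0402). Calm3, a gene of calmodulin, which binds the channels' tail, had a log2 fold change of 0.14 (adjusted p = 0.125 by group alone and 0.0684 blocked, and 0.0334 in DESeq2). After the GC correction the log2 fold changes of Sptbn4 and Calm3 were 0.14 and 0.026. With block and correction together, the adjusted p of Sptbn4 was 0.162. The next smallest p-values in the group fit belonged to genes lower in HDM. Gldn had a log2 fold change of −0.14 (edgeR unadjusted p = 0.0482, adjusted p = 0.271), and Fgf12 one of −0.12 (0.0591 and 0.296). After the GC correction the values of Gldn and Fgf12 were −0.096 and −0.050.

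**Figure D5:**
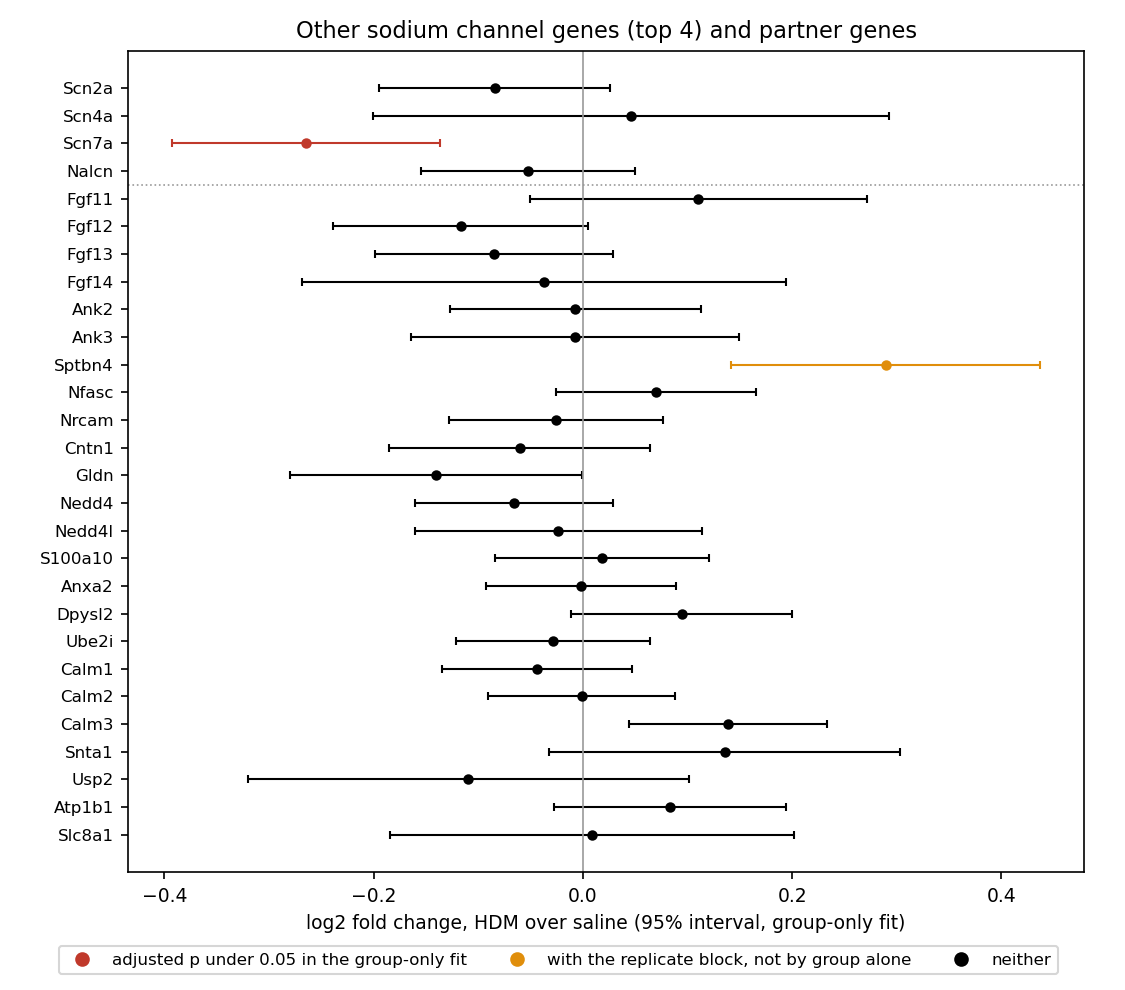
Fitted log2 fold change (HDM over saline) with its 95% interval for 4 other sodium channel genes (above the dotted line) and 24 partner genes, from the fit on group alone. Scn7a (red) passed at an adjusted p of 0.0468, Sptbn4 (orange) passed with the replicate block and not by group alone, and the others passed in neither of these 2 fits.

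Shared sequence may limit the counts of some members. Windows of 1 read were compared, and the effect on counts of paired reads was not tested. Of the 50-base windows of the longest coding transcript, 8.53% in Scn3a, 5.53% in Scn9a and 5.48% in Scn1a also occurred in the transcript of another gene, mostly of one another. The share was 2.00% in Scn10a, 1.02% in Scn2b, 0.0527% in Scn8a and 0% in Scn11a, Scn3b and Scn4b. Annotated genes on the opposite strand overlap Scn1a, Scn3a, Scn9a, Scn2b and Scn3b, and each held at most 1.19% of the counts of the member it overlaps.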

How the data were processed

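Vagal ganglion RNA was purified with a column kit, made into libraries with a stranded mRNA kit and sequenced on an Illumina NovaSeq with paired reads of 50 bp, per the labels' protocols. The authors deposited raw counts per gene, made with featureCounts on GRCm38 (mm10) per the submitters' processing notes. Not given in the sources used here are the aligner, any version, the strand setting and the treatment of reads that match several genes. Without the strand setting, reads of a gene and of one overlapping on the opposite strand cannot be told apart. Each column was matched to its sample through the column name in the labels. Gene lengths for CPM per kilobase come from the length column of the deposited table. Of 55335 genes, 55154 had a symbol in GENCODE M21 and 54899 the same span there, the 9 subunit genes among them.

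In R 4.3.3 with edgeR 4.0.16, low genes were dropped by filterByExpr, libraries were scaled with TMM factors, and the groups were tested with the quasi-likelihood F-test of edgeR (2-sided, no term but group). Adjustment (Benjamini-Hochberg) was over all 17618 tested genes, with a threshold of 0.05. Alternatives were DESeq2 1.42.0, limma-voom (limma 3.58.1), RLE size factors, other filters, the replicate block, a GC correction (per library, a spline of log2 CPM on transcript GC as an offset), a threshold of 0.10, other lengths, and leaving out libraries or batches. The setting without Saline 3 and Saline 4 together was chosen after seeing the data. The batch labels pair the libraries. Over genes, the correlation of deviations from the group mean between libraries of 1 number was −0.04 to 0.065, and 1 of 8 libraries matched its own number best.

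The subunit genes, the lists and the markers were chosen with earlier results of these data known. Named beside the 9 subunit genes were the 4 other sodium channel genes, the partners past the threshold in the group or blocked fit with up to 4 of the smallest p, and for each subunit the gene with the most alike pattern. Some genes and a sequence that the lists took are not reported here. Intervals cover 95%. Promoter and protein sequences were not used here.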

Additional observations from a re-analysis of the deposited data

Results flagged for a closer look

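In 54 sets of 4 libraries, each 1 group's values of a gene or a share, 3 held a library far from the others by Dixon's criterion, which chance meets in about 1 in 20 sets. Scn3a stood at 40.9 CPM in HDM 4, against 33.6 to 34.4 CPM in the other HDM libraries. Scn4a stood at 7.27 CPM in HDM 2, against 6.23 to 6.32 CPM. The share of Scn10a and Scn11a together in the alpha subunit transcripts was 77.9% in HDM 1, against 78.9% to 79.0%.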

How the results depend on the processing

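The count of subunit genes past the threshold was 0 of 9 under every setting run, and in the group fit at an adjusted p under 0.10 too, and the median log2 fold change of the 9 stayed within its spread over batches (SD 0.112), from −0.12 without Saline 1 to 0.018 without Saline 3 and 4. The replicate block changed no call among the 9. The count over all genes was 713 with the block, 709 at a threshold of 0.10, 722 without a filter, 843 in DESeq2, 0 after the GC correction (2051 at an unadjusted p under 0.05), 29 with block and GC correction, 0 to 376 with single libraries left out (HDM 1, HDM 2 and Saline 3 each gave 0, HDM 4 60, Saline 2 97 and HDM 3 376, where the 3 zeros had 2449, 2452 and 2373 by unadjusted p), 5, 0, 24 and 4 without batch 1, 2, 3 or 4 (2357 at an unadjusted p under 0.05 without batch 2), and 0 without Saline 3 and 4 (2705). Signs turned where log2 fold changes were near 0. Scn10a went to 0.022 without HDM 1, 0.010 without HDM 4, 0.022 without Saline 3, 0.019 without Saline 4, 0.0020 and 0.033 without batch 3 or 4, and 0.077 without Saline 3 and 4 (−0.066 to 0.022 over single libraries left out). Without Saline 3 and 4, Scn8a, Scn3b and Nalcn went to 0.059, 0.018 and 0.026. Scn3a went to −0.0028 without HDM 4 (−0.0028 to 0.12 over single libraries) and −0.016 without batch 4, and Scn3b to 0.0072 without Saline 4 (−0.085 to 0.0072). Scn4a went to −0.024 and Nalcn to 0.0079 after the GC correction (−0.019 and 0.0089 with the block), and Scn4a to −0.011, −0.0098 and −0.014 without HDM 2, Saline 1 or Saline 4 (−0.014 to 0.10). The cause was not tested. With lengths of the longest coding transcripts, the alpha subunit shares were 26.7% for Scn11a, 16.8% for Scn9a, 4.06% for Scn8a, 2.82% for Scn1a, 1.05% for Scn3a and 75.3% for Scn10a with Scn11a, since these lengths differ.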

Other observations

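The spread between pools, as the coefficient of variation of CPM over 4 libraries, was larger in saline than in HDM for 7 of the 9 subunit genes. For Scn9a it was 4.70% in HDM and 11.2% in saline, for Scn8a 4.35% and 10.3%, and for Scn11a 6.45% and 11.6%. Scn4b went the other way, with 10.9% in HDM and 3.96% in saline, as did Scn3a, with 9.63% and 7.75%. These differences in spread were not tested. The same count was not made over all tested genes, so the 7 of 9 cannot be read as particular to the subunit genes.

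The median log2 difference of the 9 subunit genes was also taken by batch (HDM minus saline of the same number). It was 0.032 in batch 1, 0.026 in batch 2, −0.11 in batch 3 and −0.20 in batch 4. Such medians were not formed over all tested genes, and differences between batches were not tested.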
